A study of Ovis aries with 15 samples.

Results

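The genes described here encode the chains of antibodies, together with JCHAIN and MZB1, in the kidneys of sheep fed aflatoxin B1 (AFB1), a mould toxin, with or without curcumin (CUR), a plant polyphenol. A row of the deposited table was taken as a member where its description named an immunoglobulin or Ig heavy, lambda or kappa chain (18 rows), where it carried the Gene Ontology term for immunoglobulin receptor binding (15 rows), or where it was JCHAIN or MZB1 by name. These conditions, some met by the same row, gave 33 members of the 25592 genes in the table. These conditions read annotation only, but the set was selected on FPKM levels already seen in these libraries, so the values below describe it and the comparisons are not independent evidence of a direction.

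An antibody is built from paired heavy and light chains, each with a variable part that binds antigen and a constant part that sets the class, such as IgM (mu), IgG (gamma), IgA (alpha) or IgE (epsilon). Light chains are of the lambda or the kappa kind. The J chain, encoded by JCHAIN, links units of IgM and IgA into polymers, and MZB1 is an endoplasmic reticulum protein of B lineage cells that aids antibody assembly and secretion. Plasma cells, the end stage of the B lineage, carry very large amounts of these transcripts, so that a small number of them in a tissue can be seen in bulk RNA. In such RNA, more cells of a type and more RNA per cell cannot be told apart.

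The animals were male crosses of Dorper and Small-tailed Han sheep, 4 months of age and all on a total mixed ration, with 6 sheep and 5 sequenced kidney libraries in each group. CON sheep ate the ration alone, AFB1 sheep ate it with AFB1 at 500 µg/kg of dry matter, and AFB1_CUR sheep ate it with that AFB1 dose and CUR at 800 mg/kg of dry matter, until day 21. No group received CUR without AFB1, and the part of the kidney taken for RNA is not given in the sources used here. Libraries were poly(A)-selected and held between 50255295 and 68747047 gene counts. The labels do not tie a library to an animal, so p-values measure only the spread between these libraries.

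The library labelled AFB1 replicate 1 went against its tissue label and was kept apart. FPKM gives fragments scaled to transcript length and to library size, so that levels can be compared between genes. On the log2(FPKM + 1) scale 10 hepatocyte genes had a mean of 11.1 in it and of 1.73 to 3.51 in the other 14 libraries, while 7 proximal tubule genes had 0.95 against 6.79 to 8.39. Its own values are given beside those of the other libraries, and comparisons used 5 CON, 4 AFB1 and 5 AFB1_CUR libraries.

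Of the 33 members, 22 were genes of antibodies or their assembly and 11 were not. Coordinates are those of the deposited table, and for all 33 members they equal those of RefSeq on ARS-UI_Ramb_v3.0. The heavy chain locus on chromosome 18, from 67589549 to 67880271, held 4 constant and 5 variable rows. The lambda locus on chromosome 17, from 70586820 to 71982456, held 3 constant or whole-chain rows and 5 variable rows, and the kappa locus on chromosome 3, from 59463398 to 59535764, held 3 variable rows. JCHAIN lay on chromosome 6 from 86765426 to 86775039, and MZB1 on chromosome 5 from 48326210 to 48328238. Of the 11 remaining rows, 7 lay on chromosome 7 in a stretch of 110 rows of which 41 were described as T cell receptor. The other 4 were FES, a tyrosine kinase, LOC121817076, a non-coding RNA on the opposite strand at FES, CLEC4D, a lectin receptor, and LOC101108647, a constant segment row on chromosome 4. None of these 11 lay at an antibody locus, and they are not counted among the antibody genes. However, 3 of them met the filter for testing and are part of the 17 members compared between groups below.

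Testing required that 5 or more of the 14 libraries reach an FPKM of 1, which 17 members met, among them 14 of the 22 antibody genes. The 14 were JCHAIN, MZB1, 3 heavy constant rows, 5 heavy variable rows, 1 whole lambda row, 2 lambda variable rows and 1 kappa variable row, with FES, LOC101106528 and LOC101108647 as the other 3. The remaining antibody rows stayed low in all libraries. Their highest FPKM values were 7.48 for LOC105602976, 7.19 for LOC101108519, 5.50 for LOC132658055, 3.60 for LOC114118889, 2.26 for LOC101114469, 1.94 for LOC121817142, 0.39 for LOC132659396 and 0.22 for LOC132659399.

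JCHAIN showed a wide spread in the fed groups. In the CON group its FPKM was 28.1, 27.2, 24.7, 17.998 and 6.27 in replicates 1 to 5. In the AFB1 group it was 559, 16.8, 82.3 and 21.5 in replicates 2 to 5, with 8.35 in AFB1 replicate 1, and in the AFB1_CUR group it was 22.5, 856, 18.5, 64.3 and 26.6 in replicates 1 to 5. The groups overlapped, and 1 library in each of the fed groups, replicate 2, stood far above the rest, with replicate 4 of each next. AFB1 replicate 2 was 23.7 times, and AFB1_CUR replicate 2 was 36.2 times, the median of the other 12 libraries, which was 23.6. JCHAIN took 0.0729% of all gene counts in AFB1 replicate 2 (39074 counts, 95% Wilson interval 0.0722% to 0.0736%) and 0.112% in AFB1_CUR replicate 2 (63204 counts). Such intervals cover counting error only, which at this depth is small beside the spread between libraries.

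MZB1 was also highest in replicate 2 of the fed groups, at a lower level than JCHAIN and with the AFB1 library above the AFB1_CUR library. Its FPKM in CON replicates 1 to 5 was 1.94, 3.11, 1.88, 0.540 and 0.225. In the AFB1 group it was 77.6, 1.42, 6.97 and 1.99 in replicates 2 to 5, with 0.432 in AFB1 replicate 1. In the AFB1_CUR group it was 0.912, 46.5, 1.23, 2.92 and 1.82. Replicate 2 of each fed group was again far above the other 12 libraries, 42.0 times their median in AFB1 and 25.2 times in AFB1_CUR, and of the remaining fed libraries only AFB1 replicate 4 lay outside the CON range.

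**Figure D1:**
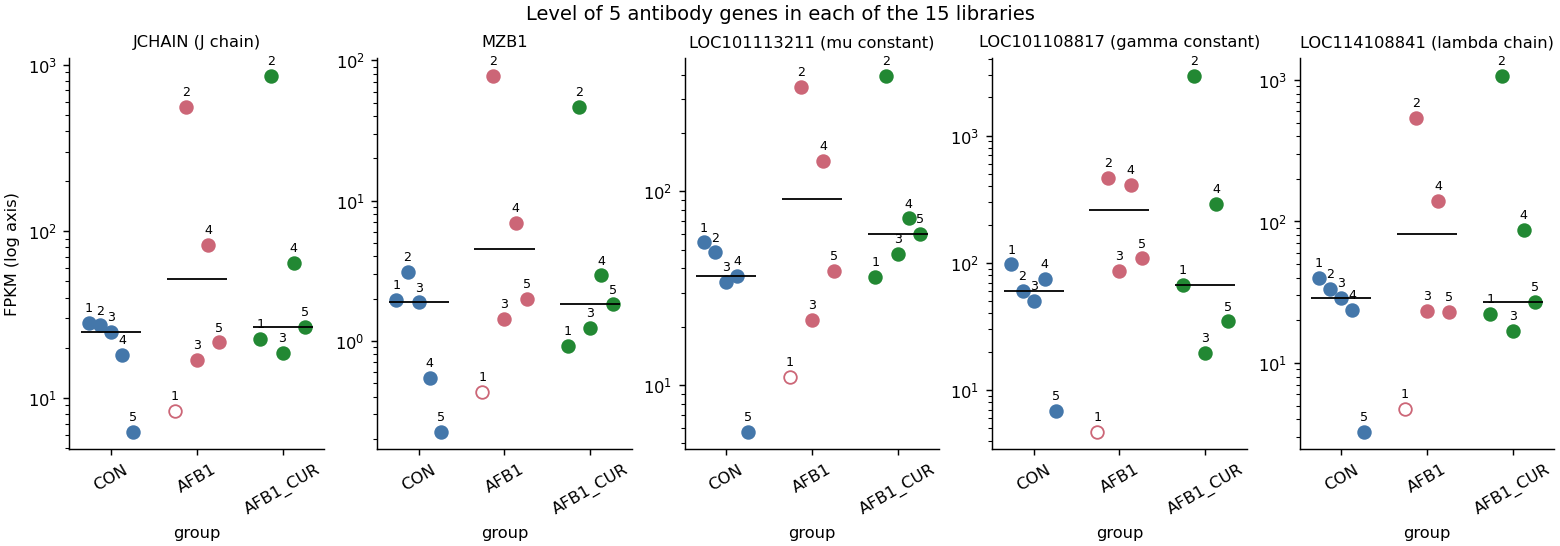
FPKM on a log axis of JCHAIN, MZB1, the mu row LOC101113211, the gamma-1 row LOC101108817 and the lambda row LOC114108841 in each library of the CON, AFB1 and AFB1_CUR groups, with replicate numbers beside the points, a line at each group's median over the libraries compared, and an open point for AFB1 replicate 1. Replicate 2 of AFB1 and of AFB1_CUR stood above the other libraries of their groups for each gene, for JCHAIN at 559 and 856, while CON replicate 5 was the lowest CON library.

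Over 14 libraries, log2(FPKM + 1) of JCHAIN and MZB1 gave a Pearson r of 0.970 (permutation test, p = 3e-05) and a Spearman rho of 0.890 (permutation test, p = 4e-05). Without the 2 libraries farthest from the median, AFB1 replicate 2 and AFB1_CUR replicate 2, r was 0.890 (permutation test, p = 0.00042, adjusted p = 0.00126). JCHAIN and MZB1 were chosen together as markers, so this describes the pair. TNFRSF17, the plasma cell receptor for survival factors, was low, at 0 to 0.763 in the 12 libraries and at 1.61 and 3.13 in AFB1 replicate 2 and AFB1_CUR replicate 2. Its r was 0.944 with JCHAIN and 0.925 with MZB1 over 14 libraries (permutation tests, adjusted p = 6e-05 and 0.00029 over 3 relations), and 0.730 and 0.767 over 12.

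The heavy constant rows differed in how closely they followed this order. LOC101113211, described as the mu constant region and on chromosome 18 from 67723152 to 67735094, had FPKM values of 54.4, 48.3, 34.0, 36.4 and 5.75 in CON. It had 344, 21.7, 143 and 38.8 in AFB1 replicates 2 to 5, with 11.0 in AFB1 replicate 1, and 36.1, 394, 47.6, 72.4 and 60.2 in AFB1_CUR. Replicate 2 of the fed groups was 7.97 and 9.12 times the median of the other 12 libraries, a smaller ratio than for JCHAIN.

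LOC101108817, described as a gamma-1 chain and on chromosome 18 from 67610426 to 67612226, had FPKM values of 97.2, 60.5, 50.2, 74.6 and 6.83 in CON. It had 467, 86.7, 411 and 108 in AFB1 replicates 2 to 5, with 4.71 in AFB1 replicate 1, and 67.1, 2952, 19.7, 292 and 34.5 in AFB1_CUR. AFB1 replicates 2 and 4 were near each other for this row, at 6.59 times the median of the other 12 libraries for replicate 2, whereas AFB1_CUR replicate 2 was at 41.7 times. LOC101107738, described as an epsilon chain, stayed at 0.286 to 3.43 in the 14 libraries, with AFB1_CUR replicate 2 highest and CON replicate 4 second at 2.08, and this row spans the gamma rows from 67589549 to 67720648, so its reads are uncertain.

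Among the light chains, LOC114108841, described as a lambda-1 light chain and on chromosome 17 from 70750757 to 71220068, had the highest mean FPKM of the light chain members. Its FPKM was 40.1, 33.3, 28.7, 23.8 and 3.28 in CON. It was 538, 23.5, 139 and 22.996 in AFB1 replicates 2 to 5, with 4.76 in AFB1 replicate 1, and 22.2, 1068, 16.9, 86.6 and 27.007 in AFB1_CUR. The pattern was that of JCHAIN, with replicate 2 of the fed groups at 21.2 and 42.0 times the median of the other 12 libraries. This row spans several variable rows, so that reads of the locus could be shared between them.

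The 2 lambda variable rows were higher still in these libraries relative to the rest. LOC132658054 had FPKM values of 111 in AFB1 replicate 2 and 238 in AFB1_CUR replicate 2, and 0 to 66.6 in the other 12. LOC114118882 had 153 and 172, and 0 to 21.5 in the other 12. Against the median of the 12, the ratios were 50.4 and 108 for LOC132658054 and 60.2 and 68.0 for LOC114118882. The kappa variable row LOC132659397 was low throughout, at 10.8 and 10.1 in these 2 libraries and 0 to 6.67 in the other 12. It does not stand for all kappa reads. LOC101110577, described as a kappa light chain and outside the members, was at 92.3 and 148 in these 2 libraries and 0.631 to 81.0 in the other 12. That row was picked out after its values were seen.

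The 5 heavy variable rows each carry a segment that a B cell clone can join into its antibody gene, and they were not equally used by the 2 high libraries. LOC132658103 had FPKM values of 462 in AFB1 replicate 2 and 488 in AFB1_CUR replicate 2, which were 39.0% and 29.1% of the summed FPKM of the 5 rows. LOC114109090 had 198 and 480.3, or 16.7% and 28.6%, and LOC121817058 had 253 and 170.3, or 21.4% and 10.1%. LOC114109345 made up 14.8% and 16.9%, and LOC114109091 made up 8.09% and 15.2%. The order of LOC121817058 and LOC114109090 was therefore opposite in these libraries, with LOC121817058 above LOC114109090 in AFB1 replicate 2. In CON replicate 5, with few reads of the locus, LOC114109090 took 81.0% and LOC121817058 took 19.0%, and the other 3 rows were at 0. With a single library of each kind these makeups have no replicate check.

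**Figure D2:**
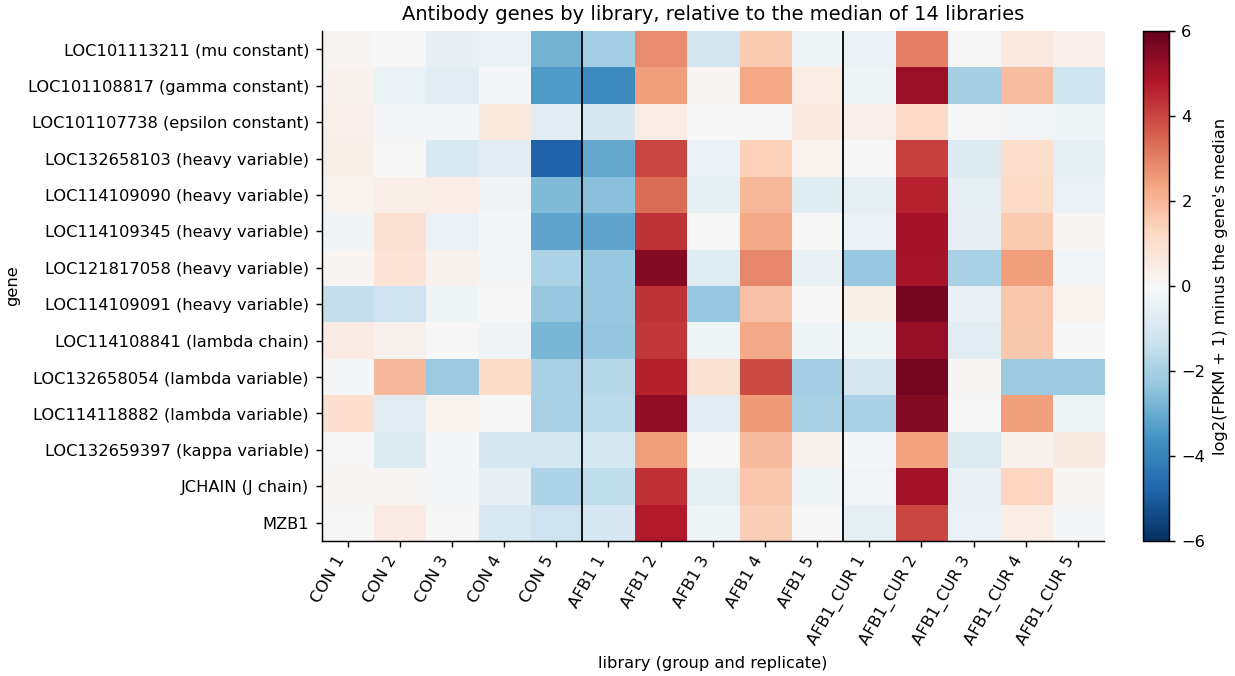
log2(FPKM + 1) of the 14 antibody genes that passed the filter, in 15 libraries, each shown as the difference from the gene's median over 14 libraries on a scale cut at 6 either side. In 13 of the 14 genes AFB1 replicate 2 and AFB1_CUR replicate 2 were the 2 highest libraries, and among the 14 compared libraries, AFB1 replicate 1 aside, CON replicate 5 was the lowest for 9 genes.

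Ranking the 14 libraries within each antibody gene gave the same libraries across loci. AFB1 replicate 2 and AFB1_CUR replicate 2 were the 2 highest for 13 of the 14 genes, the exception being LOC101107738. AFB1_CUR replicate 2 was highest for 11 genes, and AFB1 replicate 2 for MZB1, LOC121817058 and LOC132659397. For 10 of the 14, replicates 2 and 4 of AFB1 and AFB1_CUR filled the 4 highest places, and CON replicate 5 was lowest for 9. The member rows at the heavy, lambda and kappa loci together took 0.590% of all counts in AFB1 replicate 2 and 1.315% (95% Wilson interval 1.312% to 1.318%) in AFB1_CUR replicate 2. They took 0.00463% to 0.0558% in CON, 0.00623% in AFB1 replicate 1, 0.0350% to 0.201% in the other AFB1 libraries and 0.0256% to 0.124% in the other AFB1_CUR libraries.

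The conditions left out 20 segment rows of these loci whose descriptions were worded otherwise, among them the most abundant gamma row, LOC101108781, with a mean FPKM of 826. The makeup of the heavy constant region was therefore also taken over 7 rows, 4 of them added after the values were seen. Their summed FPKM was 31.6 to 409 in CON, 5238 in AFB1 replicate 2 and 9460 in AFB1_CUR replicate 2, with 1375 and 905 in replicate 4 of AFB1 and AFB1_CUR. The 3 gamma rows made up 92.7% of the sum in AFB1 replicate 2 and 87.5% in AFB1_CUR replicate 2, against 66.6% to 88.2% in the other 12, so that IgG rows led in all 14 libraries. The mu row made up 6.57% and 4.16%, against 8.00% to 28.5%.

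LOC101108781 led the gamma rows in both high libraries, at 70.6% of the 7-row sum in AFB1 replicate 2 and 55.3% in AFB1_CUR replicate 2, while the shares of the other gamma rows differed. LOC101108522, described as a gamma-3 chain, made up 13.2% in AFB1 replicate 2 and 0.968% in AFB1_CUR replicate 2, while LOC101108817 made up 8.91% and 31.2%. LOC101107475, described as an alpha chain, made up 0.632% and 8.24%, at FPKM values of 33.1 and 779. The ratio of JCHAIN to mu FPKM was 1.63 in AFB1 replicate 2 and 2.17 in AFB1_CUR replicate 2, and 0.390 to 1.09 in the other 12. LOC114118866, a lambda variable row also chosen after its values were seen, had 1099 counts (FPKM 45.1) in AFB1_CUR replicate 2 and 0 in the other 14 libraries, where a count of 0 allows up to 3 counts per library. IgG subclass genes are similar in sequence, and reads that fit several of these rows could be divided between them by a rule that is not given in the sources used here.

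**Figure D3:**
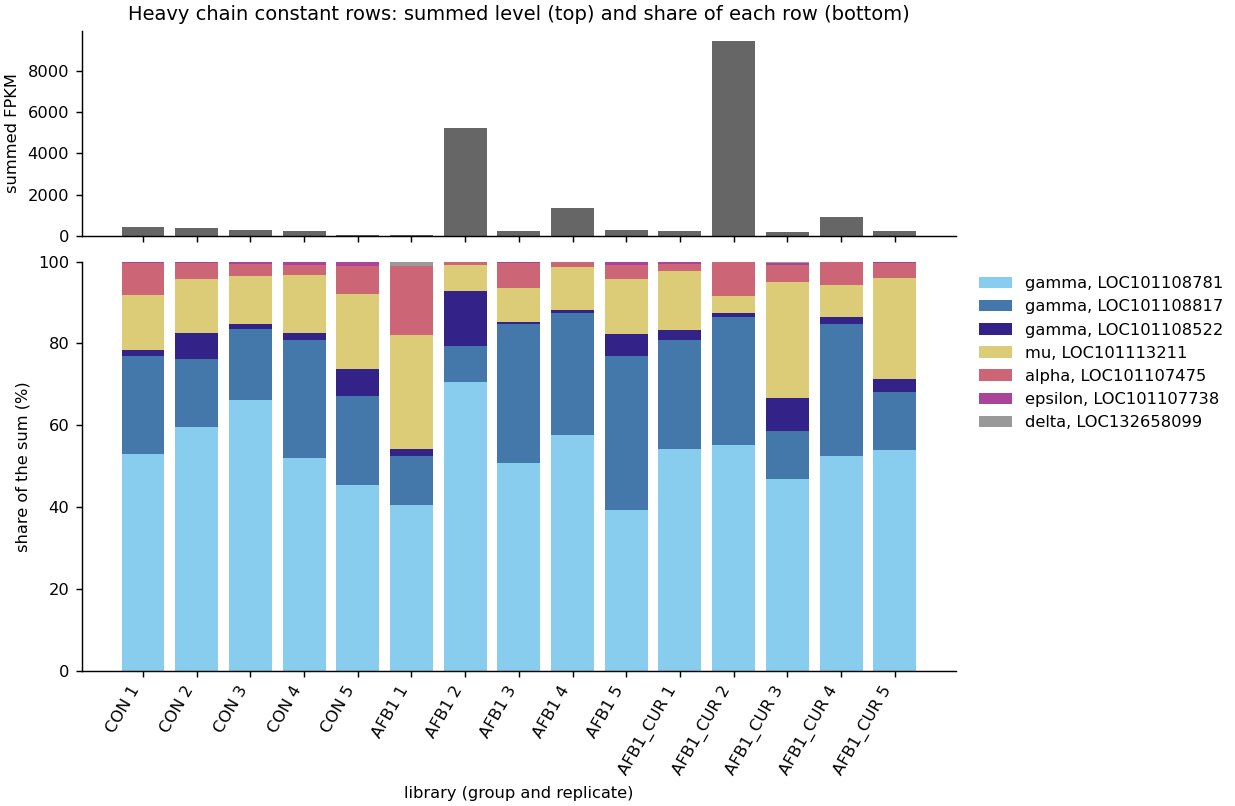
Summed FPKM of 7 heavy constant rows on a linear axis from 0 (top) and the share in percent of each row in that sum (bottom), for each of the 15 libraries. Gamma rows made up most of the sum in the high libraries, 92.7% in AFB1 replicate 2 and 87.5% in AFB1_CUR replicate 2, with an alpha share of 0.632% in the first and 8.24% in the second.

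Compared with the CON group, 9 of the 17 tested members were called higher and 0 lower in the AFB1 group, where a call is an unadjusted p under 0.05 from edgeR's quasi-likelihood test with a fold change above 1.5. Over all 13162 tested genes 0.653% were called higher, 1.11% lower and 1.76% in either direction. The 9 were JCHAIN, MZB1, LOC101113211, LOC114108841, LOC132659397 and 4 heavy variable rows. LOC132659397, at an FPKM of 1.07, 0.180, 0.990, 0 and 0 in CON replicates 1 to 5, passed the filter mainly through the fed groups. Its call above CON is therefore not independent of the filter. The log2 fold change was 2.94 (SE 1.21) for JCHAIN, 3.75 (SE 1.37) for MZB1, 1.88 (SE 0.83) for the mu row and 2.73 (SE 1.25) for LOC114108841. Median log2 fold changes were 2.88 over the 17 members and 0.02 over all genes. The gamma-1 row LOC101108817, at 2.18 (SE 1.19), was not called.

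Once adjusted by Benjamini-Hochberg, the p from edgeR's quasi-likelihood test passed 0.05 for 0 of all genes, members included, between AFB1 and CON (adjusted p = 0.957 for JCHAIN), with 664 genes at an unadjusted p under 0.05. DESeq2 called 17 genes after adjustment, 0 of them members. In an exact permutation test on log2(FPKM + 1) the two-sided p was 0.222 for JCHAIN and 0.127 for MZB1. For 0 of the 17 members did the FPKM ranges of the AFB1 and CON groups not overlap, against 1.54% of all genes. With limma on log2(FPKM + 1) the count of called members was 1 in place of 9, and with a block for the replicate number it was 3. Shares over all genes are not given here for these fits. Without AFB1 replicate 2, where 1.7% of all genes were called, the count was 1, and the log2 fold change of JCHAIN was 0.99. CON libraries bore on the count as well, which was 5 without CON replicate 1 or 2, 4 without CON replicate 3, 3 without CON replicate 4 or 5, and 6 without AFB1 replicate 4. It rose to 12 without AFB1_CUR replicate 2, where 2.29% of all genes were called. Shares over all genes are not given here for the fits without a CON library or without AFB1 replicate 4.

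Compared with the AFB1 group, 0 of the 17 members were called in either direction in the AFB1_CUR group, where 0.41% of all genes were called higher, 0.524% lower and 0.935% in either direction. The log2 fold change was 0.10 (SE 1.16) for JCHAIN, -1.16 (SE 1.26) for MZB1, -0.27 (SE 0.82) for the mu row, 1.14 (SE 1.20) for the gamma-1 row and 0.30 (SE 1.21) for LOC114108841. Estimates were above 0 for 8 members and their median was -0.06. Each of these 5 standard errors was larger than its estimate, so that a difference of several fold in either direction was not detectable at this spread. Benjamini-Hochberg adjustment of edgeR's quasi-likelihood test left 0 of all genes, with 303 at an unadjusted p under 0.05, and DESeq2 called 3, no member among them. The exact permutation p was 1.0 for JCHAIN and 0.444 for MZB1. The FPKM ranges of the AFB1_CUR and AFB1 groups overlapped for every tested member, and were apart for 0.676% of all genes. Without AFB1_CUR replicate 2, where 1.5% of all genes were called, 4 members were called lower in AFB1_CUR, JCHAIN at -2.30, MZB1 at -3.60, LOC114108841 at -2.18 and LOC132658054 at -5.24. Without AFB1 replicate 2, where 2.06% of all genes were called, only LOC101106528, a T cell receptor row, was called, at 0.82.

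Compared with the CON group, 8 members were called higher and 0 lower in the AFB1_CUR group, where 1.05% of all genes were called higher, 0.577% lower and 1.63% in either direction. They were JCHAIN, LOC101108817, LOC114108841, 3 heavy variable rows, LOC132659397, which passed the filter mainly through the fed groups, and LOC101108647. The log2 fold change was 3.04 (SE 1.18) for JCHAIN, 3.32 (SE 1.21) for the gamma-1 row and 3.03 (SE 1.23) for LOC114108841, and it was 2.59 (SE 1.28) for MZB1 and 1.61 (SE 0.80) for the mu row, neither of which was called. Median log2 fold changes were 2.59 over the members and -0.00 over all genes. Benjamini-Hochberg adjustment of edgeR's quasi-likelihood test left 0 of all genes (adjusted p = 0.823 for JCHAIN), with 723 at an unadjusted p under 0.05, and DESeq2 called 1, which was no member. The exact permutation p was 0.206 for JCHAIN and 0.357 for MZB1. With limma on log2(FPKM + 1) the count was 0 in place of 8, and with a block for the replicate number it was 1. Without AFB1_CUR replicate 2, where 0.935% of all genes were called, the count was 1. It was 3 without CON replicate 4 or 5 and 12 without AFB1_CUR replicate 1. Except without AFB1_CUR replicate 2, shares over all genes are not given here for these fits. Of 14 tested rows that the conditions left out, 5, 1 and 3 were called in the 3 comparisons, all higher in the first-named group. The 1 between AFB1_CUR and AFB1 was the alpha row LOC101107475, which was at 779 FPKM in AFB1_CUR replicate 2, at 4.12 to 50.1 in the other AFB1_CUR libraries and at 9.89 to 33.1 in AFB1, so that 1 library was far above the rest and the groups otherwise overlapped. Both fed groups were set against the same CON libraries, so these 2 comparisons with CON are not independent of each other.

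The order of the groups depended on whether means or medians were compared. For JCHAIN the mean FPKM was 20.9 ± 9.06 in CON (SD, n = 5), 170.0 ± 261 in AFB1 (SD, n = 4) and 198 ± 368 in AFB1_CUR (SD, n = 5), whereas the medians were 24.7, 51.9 and 26.6. The FPKM summed over the member rows of the heavy, lambda and kappa loci had medians of 199 in CON, 641 in AFB1 and 181 in AFB1_CUR. On the log2 scale the medians differed by 1.69 between AFB1 and CON, by -1.82 between AFB1_CUR and AFB1 and by -0.14 between AFB1_CUR and CON, where the pooled SD between libraries of a group was 1.94. The first was 2.40 without AFB1 replicate 3 or 5 and 0.22 without AFB1 replicate 2 or AFB1 replicate 4, the second was -2.54 without AFB1 replicate 3 or 5, -0.36 without AFB1 replicate 2 or 4 and -0.63 without AFB1_CUR replicate 1, 3 or 5, and the last was 1.06 without AFB1_CUR replicate 1, 3 or 5. The fitted fold changes, which weigh the high libraries as means do, were above 0 for both fed groups. By medians AFB1_CUR was close to CON for JCHAIN and the sum, but not for every member, with medians of 60.2 against 36.4 for LOC101113211, 5.12 against 1.05 for LOC114109091 and 1.43 against 0.180 for LOC132659397.

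Leaving out AFB1 replicate 2 and AFB1_CUR replicate 2 together, a setting chosen after the data were seen, gave 1 called member in each of the 3 comparisons, where 1.99%, 1.66% and 0.942% of all tested genes were called. These were LOC132659397 between AFB1 and CON, LOC132658054 between AFB1_CUR and AFB1 at -4.40, and LOC101108647 between AFB1_CUR and CON. The call of LOC132659397 is not independent of the filter, which this row passed mainly through the fed groups. The median log2 fold change over the members was then 1.23 between AFB1 and CON, -0.58 between AFB1_CUR and AFB1 and 0.66 between AFB1_CUR and CON. For JCHAIN the values were 1.001, -0.34 and 0.66, and for MZB1 they were 1.23, -1.07 and 0.16. Estimates for JCHAIN and MZB1 thus stayed above 0 against CON in both fed groups, at a smaller size and without a call.

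**Figure D4:**
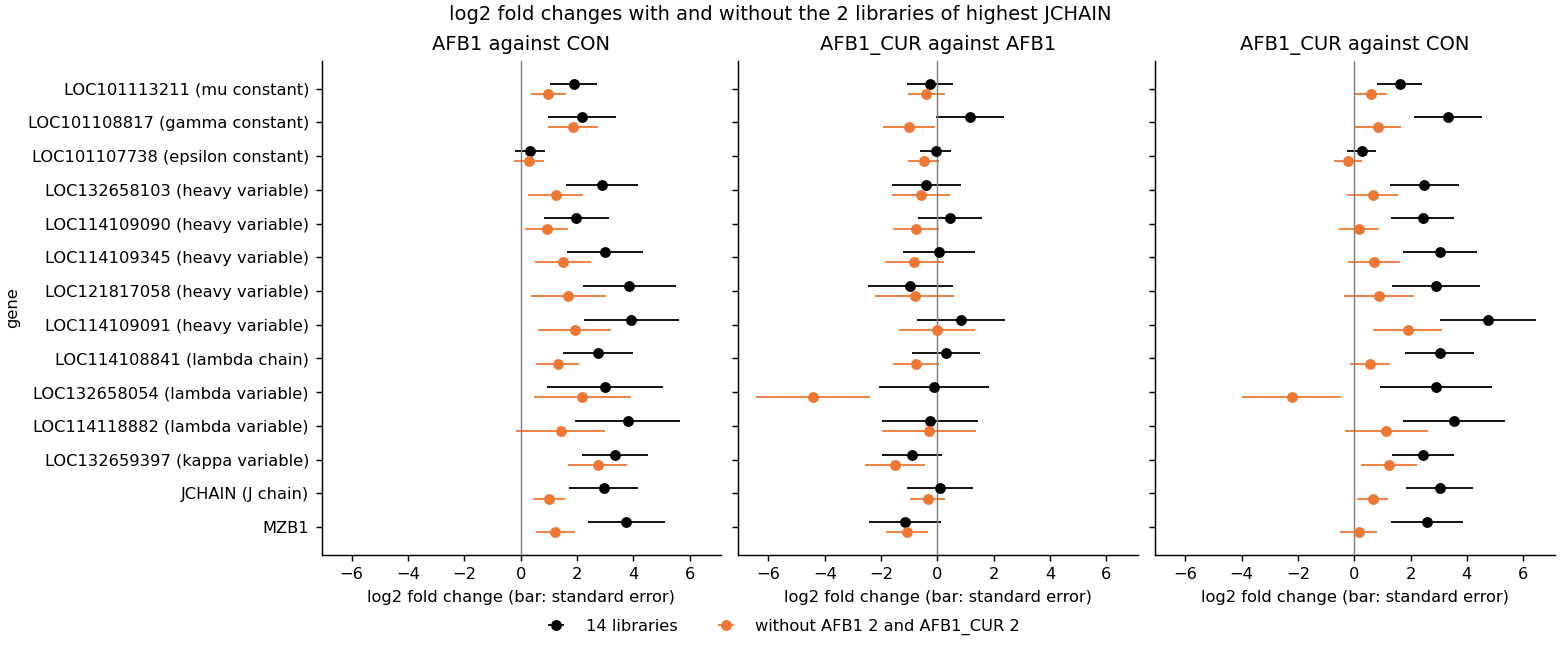
log2 fold change with its standard error of the 14 antibody genes that passed the filter in each of the 3 comparisons, in black for 14 libraries and in orange without AFB1 replicate 2 and AFB1_CUR replicate 2. With 14 libraries JCHAIN was at 2.94 between AFB1 and CON and at 3.04 between AFB1_CUR and CON, and without the high libraries it was at 1.001 and 0.66.

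LOC101108647 was the only tested member whose FPKM ranges in AFB1_CUR and CON were apart. Its FPKM was 1.08, 0.996, 1.38, 0.517 and 0.333 in CON and 1.46, 1.75, 1.73, 1.51 and 1.71 in AFB1_CUR, and the ranges of these groups were apart for 0.722% of all genes. Its highest and lowest libraries were those of most antibody genes, AFB1 replicate 2 and AFB1_CUR replicate 2 at the top and CON replicate 5 at the bottom, over a narrower range. In the AFB1 group it was 1.76, 0.620, 0.805 and 1.17 in replicates 2 to 5 and 1.34 in replicate 1. The log2 fold change between AFB1_CUR and CON was 0.84 (SE 0.35, unadjusted p = 0.0307 in edgeR's quasi-likelihood test). The row lies on chromosome 4 from 51572386 to 51597490, outside the antibody loci, at levels near the filter, and its description comes from a deer protein.

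Genes of other kinds moved with the antibody genes across libraries. Over 14 libraries the Pearson correlation of log2(FPKM + 1) with JCHAIN had a median of 0.938 over the 13 other antibody genes that passed the filter, with a range of 0.619 to 0.985, and a median of 0.242 over all genes. Over the 12 libraries the medians were 0.876 and 0.00. The 10 genes outside the members with the highest correlation were DERL3, which serves protein quality control in the endoplasmic reticulum (0.984), the gamma row LOC101108781 (0.973), the lambda variable row LOC121816875 (0.949), TPST2 (0.949), the lymphocyte receptor CD27 (0.945), the CD48-like LOC114117625 (0.932), the B cell adaptor BANK1 (0.929), CP, which encodes ceruloplasmin (0.926), NUF2, a kinetochore protein (0.924), and the B cell receptor subunit CD79A (0.923). Over the 12 libraries DERL3 had 0.929, whereas CP had 0.495.

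Plasma cell genes were highest in the same libraries. Of 20 listed genes of the plasma cell program, 18 were in the table, and all 18 had their highest value in AFB1 replicate 2 or AFB1_CUR replicate 2 among the 14 libraries. Their mean log2(FPKM + 1) was 3.83 and 3.91 there, against 2.41 to 2.79 in the other 12, and it was 2.89 in AFB1 replicate 1. DERL3 was at 44.8 and 41.2 FPKM in the 2 libraries and at 0.611 to 8.42 in the other 12. XBP1, the transcription factor of secretory cells, was at 107 and 104 against 47.1 to 66.2, and PRDM1, which drives plasma cell differentiation, at 6.196 and 5.42 against 1.45 to 2.47. SDC1, a defining plasma cell marker, was only 1.06 and 2.84 in the high libraries and 0.615 to 1.35 in the others.

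Of the 15 plasma cell genes tested, 1 was called higher in AFB1 than in CON, DERL3 at 2.50 (SE 1.05), and 0 were called in the other 2 comparisons. The median log2 fold change of the 15 was 0.40 between AFB1 and CON, -0.15 between AFB1_CUR and AFB1 and 0.22 between AFB1_CUR and CON. SEC11C, a signal peptidase subunit, had the smallest unadjusted p of the list, with log2 fold changes of 0.40 in AFB1 against CON and -0.54 in AFB1_CUR against AFB1 (unadjusted p = 0.0072 and 0.000842 in edgeR's quasi-likelihood test), both below the fold required for a call. PIGR, the epithelial receptor that carries IgA and IgM into secretions, was at 20.8 to 72.8 in the 14 libraries, with log2 fold changes of 0.15, -0.39 and -0.24 in the 3 comparisons. FCGRT, the receptor that recycles IgG, had 0.10, -0.06 and 0.04. Of 7 tested genes for antibody transport and Fc receptors, 0 were called in the first 2 comparisons and 1, FCGR2B at 1.30, between AFB1_CUR and CON. Among 8 tested homing and survival genes, ITGA4 was called between AFB1 and CON at 0.88 and between AFB1_CUR and CON at 0.83, the latter with TNFSF13B, the B cell survival factor, at 1.06, and 0 were called between AFB1_CUR and AFB1. Over all tested genes 1.76%, 0.935% and 1.63% were called in the 3 comparisons, by unadjusted p-values as here.

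Markers of other immune cells were also highest in these 2 libraries among the 14 compared. The mean log2(FPKM + 1) of 15 B cell genes was 2.07 in AFB1 replicate 2 and 3.72 in AFB1_CUR replicate 2, against 0.28 to 0.81 in the other 12. AFB1 replicate 4 and AFB1_CUR replicate 4, next in order for JCHAIN, had B cell means of 0.58 and 0.52, inside that range. MS4A1, a surface marker of B cells that plasma cells lack, was at 7.57 and 46.3 FPKM, against 0.026 to 0.983, and CD79A was at 27.6 and 62.6, against 0.536 to 5.72. CXCL13, a chemokine that attracts B cells and was picked out after its values were seen, was at 22.2 and 28.8, against 0 to 2.24. The score of 8 T cell genes was 3.76 and 4.12, against 1.43 to 2.78, and that of 9 myeloid genes was 4.58 and 4.99, against 2.35 to 3.74. All 8 T cell and all 9 myeloid genes were highest in 1 of the 2 libraries, as were 5 of 7 housekeeping, 5 of 10 hepatocyte, 2 of 6 loop and collecting duct and 1 of 7 proximal tubule genes. In AFB1 replicate 1 the B cell, T cell and myeloid means were 0.56, 2.16 and 4.72, the last above that of AFB1 replicate 2. Kidney and hepatocyte markers differed in these libraries as well. The mean of 7 proximal tubule genes was 7.28 and 6.84, inside the range of 6.79 to 8.39 in the other 12, but their summed FPKM was 1451 and 1223, below the 1466 to 3115 of the other 12. The mean of 6 loop and collecting duct genes was 7.55 and 6.14, against 6.31 to 7.41, so that it was above the other 12 in AFB1 replicate 2 and below them in AFB1_CUR replicate 2. The mean of 10 hepatocyte genes was 3.51 and 1.73, against 2.17 to 3.28, likewise above the other 12 in the first and below them in the second. The mean of 7 housekeeping genes was 7.28 and 7.55, against 6.89 to 7.30. Of 3 B cell genes tested, BANK1 was called between AFB1 and CON (1.13) and between AFB1_CUR and CON (1.47). Of 8 T cell and 8 myeloid genes tested, 0 were called in the first 2 comparisons, and CD8B (1.26) and CD68 (1.95) were called between AFB1_CUR and CON. These calls rest on unadjusted p-values, and over all tested genes 1.76%, 0.935% and 1.63% were called in the 3 comparisons. The part of these immune, kidney and hepatocyte markers in the levels of the antibody genes was not tested.

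**Figure D5:**
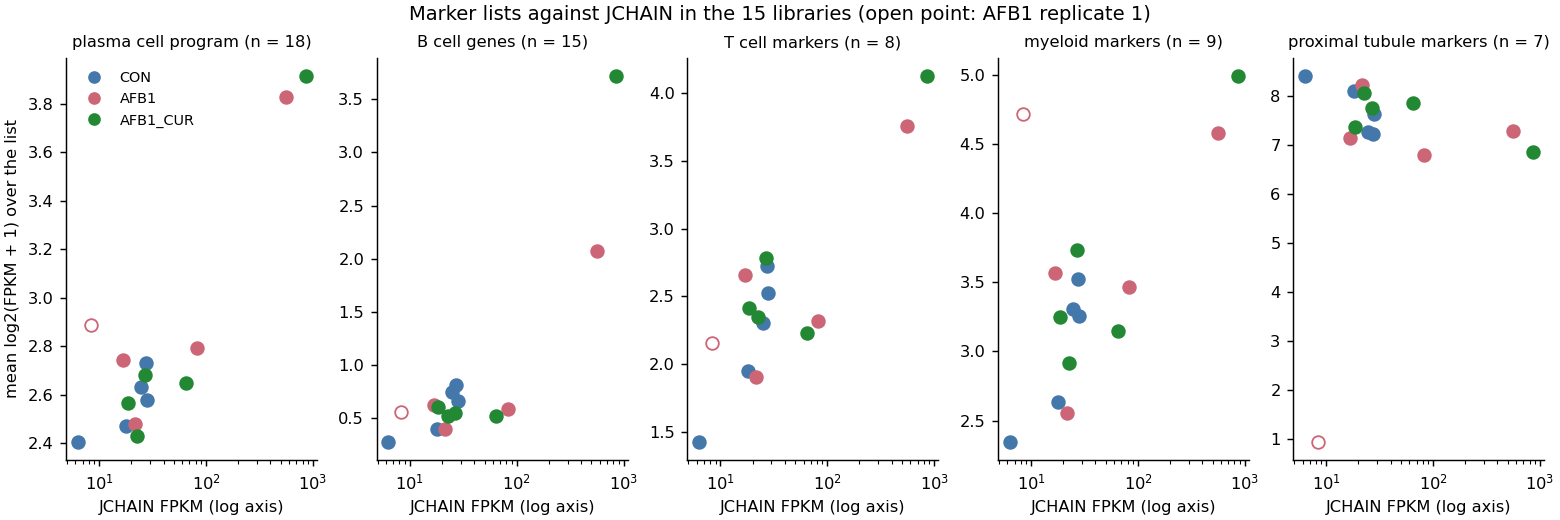
Mean log2(FPKM + 1) of the plasma cell (18 genes), B cell (15), T cell (8), myeloid (9) and proximal tubule (7) lists in each library against the FPKM of JCHAIN on a log axis, with AFB1 replicate 1 as an open point. AFB1 replicate 2 and AFB1_CUR replicate 2 lie at the right, at B cell scores of 2.07 and 3.72 against 0.28 to 0.81 in the other 12, while their proximal tubule scores were 7.28 and 6.84 against 6.79 to 8.39.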

How the data were processed

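The members and the gene lists were chosen with earlier results of these data known. The authors trimmed the reads, aligned them and deposited read counts, not normalized, and FPKM values for 25592 genes in 15 libraries. Per the submitters' processing notes, cutadapt 1.9, HISAT2 2.2.1 and StringTie 2.1.6 were used, with DESeq2 and edgeR, while the tool that assigned reads to genes, its strand setting and the build are not named in these sources. Chromosome, start and end equal those of RefSeq on ARS-UI_Ramb_v3.0 for 99.6% of the 24947 genes matched by symbol. Groups were taken from the sample titles, since the treatment label counts upward within a group. Each count and FPKM column was used.

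AFB1 replicate 1 was left out of the fits. Genes with an FPKM of 1 or more in 5 or more of the 14 libraries (13162 genes) entered a single fit of the 3 groups in edgeR 4.0.16 (glmQLFit and glmQLFTest, TMM normalization, R 4.3.3). Calls needed a fold change above 1.5 together with an unadjusted p under 0.05, as in the study, and adjustment was over all tested genes. The study's DESeq2 (1.42.0 here) and limma 3.58.1 on log2(FPKM + 1) and log2(FPKM + 0.1) served as alternatives, as did other filters, size factors, a scaling without the members, each library left out and a replicate block. The fits were tested on simulated data. Single-gene comparisons used two-sided exact permutation tests, and correlations 100000 permutations (scipy 1.17.1), both on log2(FPKM + 1).

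The text names JCHAIN, MZB1, the constant and whole-chain members, the 8 most abundant variable members, called members, up to 4 genes of each other list by lowest p with 7 fixed markers, and the 10 genes most correlated with JCHAIN. Genes named beyond these, such as the rows added to the heavy constant makeup, were chosen after their values were seen.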

Additional observations from a re-analysis of the deposited data

Results flagged for a closer look

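Within each group of 4 or 5 compared libraries, the highest and the lowest log2(FPKM + 1) of each tested member were set against the rest with Dixon's test at the 95% level. Of 51 gene and group pairs, 8 held such a library, where chance gives about 1 in 20, and the genes are not independent of each other. On this log scale CON replicate 5 lay far below the other 4 CON libraries for LOC101108817 (FPKM 6.83), LOC101113211 (5.75), LOC114108841 (3.28), LOC114109090 (2.105) and LOC132658103 (0). This library was not low for antibody genes alone. Of the 14 libraries it had the lowest mean log2(FPKM + 1) for the B cell (0.28), T cell (1.43) and myeloid (2.35) lists. It had the highest mean for the proximal tubule list (8.39). AFB1_CUR replicate 2 lay far above the other 4 libraries of its group for LOC101113211 (FPKM 394), LOC132658054 (238) and MZB1 (46.5). The libraries found depend on the scale. On FPKM itself, a scale tried after the data were seen, 20 pairs held one, AFB1_CUR replicate 2 for 14 members and AFB1 replicate 2 for 6, JCHAIN and MZB1 among both, and CON replicate 5 for 0.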

How the results depend on the processing

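The number of libraries limits these results, with 4 or 5 in a group. Replicate 2 of the fed groups stood above the rest for 13 of the 14 antibody genes, and replicate 4 came next for 10. In any of 25 alternative settings 0 members passed Benjamini-Hochberg adjustment. Called members numbered 9, 0 and 8 between AFB1 and CON, AFB1_CUR and AFB1, and AFB1_CUR and CON. They numbered 3, 0 and 5 with all 15 libraries, 1, 0 and 0 with limma on log2(FPKM + 1), 1, 0 and 2 with limma on log2(FPKM + 0.1), 3, 0 and 1 with a replicate block, 1, 1 and 1 without both high libraries (chosen after the data were seen), 12, 1 and 12 with no filter, 10, 1 and 9 with filterByExpr and 6, 0 and 7 with DESeq2. With each library left out in turn they ranged from 1 to 12, from 0 to 4 and from 1 to 12. Without both high libraries 1.99%, 1.66% and 0.942% of all tested genes were called. Such shares are not given here for the other settings listed, so those counts cannot be set against the general rate. With no filter and with filterByExpr, members beyond the 17 were tested as well. Same-numbered libraries did not all deviate together (r of -0.28 to 0.55, over 0.1 in 5 of 13 pairs, 3 of these the pairs of replicate 2, with 5 of 13 pairs correlating better than with any other number). The pairs of replicate 2 were at 0.37, 0.38 and 0.55, each best with its own number. The labels name nothing that same-numbered libraries share, and what the block reflects was not tested. Estimates of the 14 antibody genes kept their sign in all 350 alternative values between AFB1 and CON, and changed it in 60 of 350 between AFB1_CUR and AFB1 and in 5 of 350 between AFB1_CUR and CON. These values come from genes that moved together and from settings that share most libraries, so they are not independent checks of a direction. Between AFB1_CUR and AFB1 the log2 fold changes of JCHAIN, LOC101108817 and LOC114108841 were -0.16, -0.63 and -0.35 with limma on log2(FPKM + 1), -0.16, -0.647 and -0.36 with log2(FPKM + 0.1), -0.067, -0.53 and -0.19 with the block and -0.34, -1.02 and -0.75 without both high libraries. With all 15 libraries LOC101113211 was at 0.0031 and LOC101107738 at 0.25. Leaving out single libraries gave -2.30 to 2.05 for JCHAIN, -3.60 to 1.37 for MZB1, -1.35 to 1.49 for LOC101108817, -1.31 to 0.64 for LOC101113211, -0.55 to 0.22 for LOC101107738 and -2.18 to 1.73 for LOC114108841. Between AFB1_CUR and CON, LOC101107738 was at -0.21 without both high libraries and at -0.23 to 0.64 without single ones. LOC132658054 was at -0.057 with limma on log2(FPKM + 0.1), -2.22 without both high libraries and -2.24 to 3.72 without single ones. The cause of these sign changes was not tested. The correlation of JCHAIN and MZB1 was taken in 19 alternative settings and kept its side of the threshold in each, at 0.890 to 0.979.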
